A study of Mus musculus with 8 samples.

Results

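The genes described here encode C-type lectins, Siglecs and paired receptors of myeloid cells, and 18 of them were among the 2386 genes of a comparison of liver macrophages between diets. A gene was taken when its symbol began with Clec, Cd209, Cd300, Siglec, Lilr, Pira, Pirb, Pilr, Sirp, Trem or Slamf, and Clec4g was left out. The study compared C57BL/6 mice, a common inbred strain, on a western diet (WD, 4 libraries) with C57BL/6 mice on a normal diet (ND, 4 libraries). The series design gives 4 mice for each diet, and the sources used here do not give the composition or duration of the diets, the age or sex of the mice or the way in which the macrophages were isolated. The authors' deposited table writes the groups as WDV and NDV without explaining the V, and WDV was read as WD and NDV as ND. It holds 1 log2 fold change for each gene, western over normal diet, beside a standard error (SE), and a mean normalized count over the libraries, but no value for a single library. The ± after each log2 fold change below is therefore the authors' SE, and whether the diets overlap library by library was not analysed here.

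Receptors of these families sit on the surface of macrophages, dendritic cells and other leukocytes and read sugars, lipids and membrane proteins on microbes and neighbouring cells. C-type lectins bind sugar chains or other ligands through a shared lectin fold, and Siglecs bind sialic acid. The CD300, SIRP, TREM, PIR and LILR families are called paired because close relatives carry opposite signals. Inhibitory members recruit phosphatases through tyrosine motifs in their tails, and activating members signal through adaptors such as DAP12. SLAM family receptors mostly bind another copy of themselves on a neighbouring cell. In the liver such receptors are used by Kupffer cells and by recruited monocytes and dendritic cells, and a few relatives are made by endothelium.

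Most of the receptor genes were higher under western diet, by a little over 2-fold, while 4 were lower by larger factors. At an adjusted p below 0.05, 13 of the 18 were called higher and 4 lower in the authors' deposited table, and Clec2f did not pass. Of all 2386 listed genes, 22.0% were called higher and 61.4% lower by the same rule. A gene entered the authors' deposited table only with a p below 0.05 and a log2 fold change beyond 1 in size, so that the 18 were bound to differ and only their direction and size are described. The 13 higher genes had a median log2 fold change of 1.12, against 1.34 for all 526 genes called higher in the authors' deposited table. The 4 lower genes had a median of -2.69 there, against -2.10 for all 1464 genes called lower. These medians compare genes at unlike levels. The median mean count was 253 for the 13 higher genes against 49.0 for the 526, and 750 for the 4 lower genes against 60.6 for the 1464. The median SE was 0.190 against 0.330 for the higher genes and 0.285 against 0.309 for the lower ones. Of the 13, 9 lay between 1.01 and 1.16 in the authors' deposited table, and Slamf6 and Sirpb1a, both at 1.01, were the ones nearest to the limit of the list. With 95% intervals computed from the SE, 70 of the 78 pairs of higher genes overlapped. The exceptions were 7 pairs with Slamf8 and the pair of Slamf7 and Clec7a. Overlap of intervals is no test of a difference, and the genes come from the same libraries, so the order within the group was not tested. Only Slamf7 and Slamf8 among the 13 had an interval wholly above 2-fold, whereas all 4 lower genes had one wholly beyond a 2-fold fall. Of the 526 genes called higher, 114 had such an interval, which is 4.78% of all listed genes. Of the 1464 genes called lower, 949 had one, which is 39.8% of all listed genes.

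**Figure D1:**
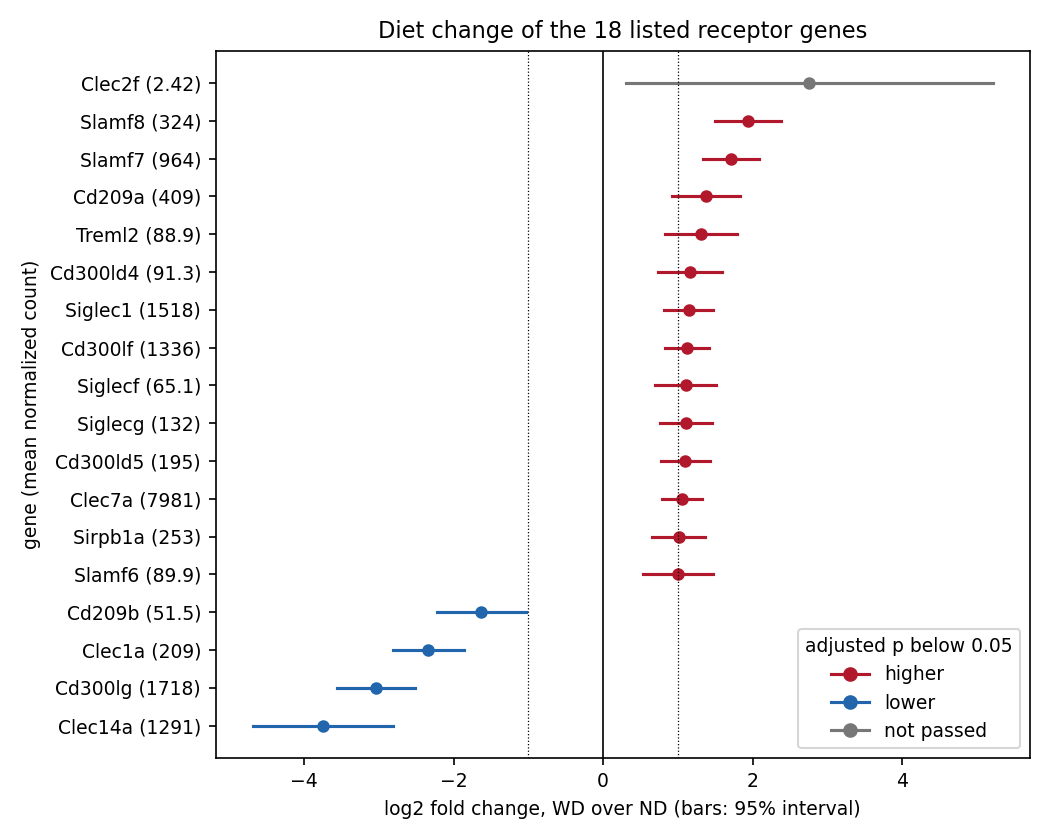
Log2 fold change, western over normal diet, of the 18 listed receptor genes (points) with 95% intervals (bars), mean normalized count in brackets, dotted lines at 2-fold. Slamf8 at 1.94 and Slamf7 at 1.71 lead the 13 higher genes, the 4 lower genes run from -1.63 to -3.75, and the interval of Clec2f is the widest.

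The SLAM family held the largest rises that passed. Slamf8 (ENSMUSG00000053318, chromosome 1, 172581758 to 172590568, GRCm38), a myeloid member of the family, rose 3.84-fold (log2 1.94 ± 0.23, adjusted p 2.42e-16) at a mean count of 324 in the authors' deposited table. Slamf7 (ENSMUSG00000038179, chromosome 1, 171632403 to 171653035), which binds itself on macrophages and NK cells, rose 3.27-fold (log2 1.71 ± 0.19, adjusted p 1.03e-17) at a mean count of 964 in the authors' deposited table. If the fold change is read as the ratio of the means of 4 and 4 libraries, these means correspond to 134 in ND and 514 in WD for Slamf8 and to 452 and 1476 for Slamf7. Such group levels are arithmetic from the authors' deposited table and not measured group means. Slamf6 (ENSMUSG00000015314, chromosome 1, 171917515 to 171953170), a receptor of T and NK cells, stood lower in size at 1.01 ± 0.24 (adjusted p 0.000193) and a mean count of 89.9 in the authors' deposited table. The intervals of Slamf8 and Slamf6 did not overlap. Part of the Slamf7 transcript sequence cannot be told apart from Gm37787, an antisense gene within it, since 7.14% of its 50-base stretches occur in both genes. Gm37787, named here after its values were seen, was also called higher in the authors' deposited table (1.72 ± 0.58), and whether the counting used strand is not given in the sources used here.

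The promoters of the 2 leading genes are shown because both hold a match to a motif searched for. They run from 250 bases before the RefSeq start site to 30 bases from it on (GRCm38.p6), and capitals mark the matches. Slamf8 lies on the minus strand at chr1:172590539-172590818 and Slamf7 on the minus strand at chr1:171648970-171649249. The Slamf7 window lies inside the GENCODE gene, whose 5′ end is at 171653035, so the RefSeq start site used here is not that end.
Slamf8: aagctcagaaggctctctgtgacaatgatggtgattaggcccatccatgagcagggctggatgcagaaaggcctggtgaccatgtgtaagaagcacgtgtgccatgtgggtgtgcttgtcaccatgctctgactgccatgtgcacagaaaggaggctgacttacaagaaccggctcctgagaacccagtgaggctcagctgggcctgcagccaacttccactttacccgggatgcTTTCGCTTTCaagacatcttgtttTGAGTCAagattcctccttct
Slamf7: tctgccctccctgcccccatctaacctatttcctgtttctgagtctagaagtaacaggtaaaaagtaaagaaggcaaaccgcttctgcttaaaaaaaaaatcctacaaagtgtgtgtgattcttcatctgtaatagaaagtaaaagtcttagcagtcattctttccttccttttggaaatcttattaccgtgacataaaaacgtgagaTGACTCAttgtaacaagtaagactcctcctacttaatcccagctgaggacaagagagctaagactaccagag
In Slamf8 the first run of capitals is the interferon response element pattern read on the opposite strand, and begins at position -15 with the start site as 0. The second is TGANTCA, the AP-1 pattern, and in Slamf7 the same pattern begins at position -42. Over windows of 300 bases, searched on both strands, the interferon response element pattern was found in 3.99% of the 27025 genes with a promoter sequence and TGANTCA in 8.97%. Among the receptor genes, 13 of 18 had a promoter sequence, and each of the patterns occurred in 2 of them, the first in Slamf8 and Sirpb1a and the second in Slamf7 and Slamf8. A match describes letters in this window and not the binding of a factor.

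Clec7a was by far the most abundant receptor gene. It encodes Dectin-1, the receptor of fungal beta-glucan, which signals through the kinase Syk (ENSMUSG00000079293, chromosome 6, 129461591 to 129472779). Its mean count of 7981 was the largest of all 526 genes called higher in the authors' deposited table. Clec7a rose 2.07-fold (log2 1.05 ± 0.14, adjusted p 4.82e-13) in the authors' deposited table, with the smallest SE of the 18 genes. The corresponding group levels are 5194 in ND and 10768 in WD. Scaled to annotated exon length, its mean level over both diets of 3025 normalized counts per kb exceeded that of Cd300lg (628), Clec14a (282), Cd300lf (260), Cd209a (258) and Cd300ld5 (229), the next in this order. That order pools both diets and does not hold within each. The place of Cd300ld5 in it is uncertain, since every 50-base stretch of its transcript occurs in another gene. By the arithmetic above, the WD levels per kb are 4082 for Clec7a, 373 for Cd209a and 356 for Cd300lf, against 136 for Cd300lg and 39.1 for Clec14a. The ND levels per kb are 1969 for Clec7a, 1119 for Cd300lg and 526 for Clec14a, and those of Cd209a (143) and Cd300lf (164) lie below them. Slamf6 (8.30) and Clec2f (3.69) had the lowest mean levels per kb over both diets.

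Cd209a, a mouse relative of DC-SIGN that marks a class of dendritic cells, followed Slamf8 and Slamf7 in size. In the authors' deposited table Cd209a (ENSMUSG00000031494, chromosome 8, 3743397 to 3748984) rose 2.60-fold (log2 1.38 ± 0.23, adjusted p 4.40e-08) at a mean count of 409. Of the 10 markers of type 2 conventional dendritic cells on the list used here, 4 were called higher and none lower in the authors' deposited table, Cd209a itself among them. The others were Tnip3 (1.21 ± 0.15), Cd7 (1.48 ± 0.28) and Kmo (1.19 ± 0.30) in the authors' deposited table, and Clec10a, Mgl2 and Sirpa were not listed. The part that the number of such cells had in the value of Cd209a was not tested. The marker list was chosen with earlier results of these data known, and 22.0% of all listed genes were called higher. In bulk RNA, fewer or more cells of a type and less or more RNA for each cell cannot be told apart.

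**Figure D2:**
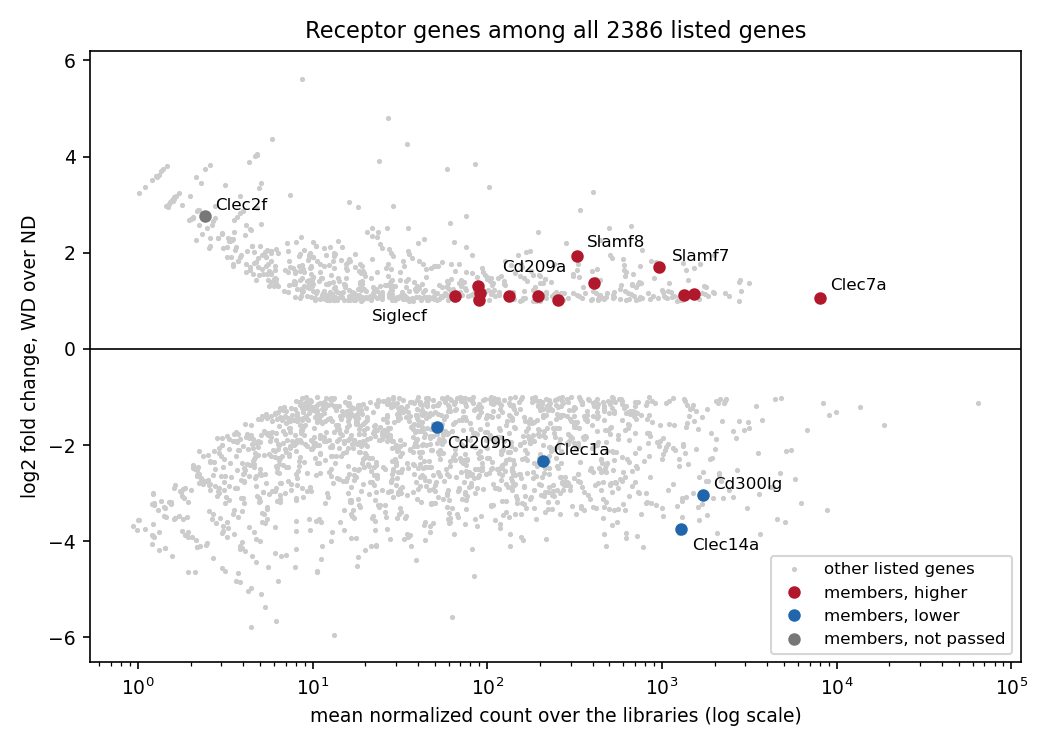
Log2 fold change, western over normal diet, against mean normalized count (log axis) for all 2386 listed genes (grey) and the 18 receptor genes (coloured by call). Clec7a, at a mean count of 7981, lies to the right of every other gene called higher, and the empty band around 0 is the limit of the authors' list.

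Among the CD300 receptors, which bind lipids such as phosphatidylserine, 3 genes rose by nearly equal factors. Cd300lf (ENSMUSG00000047798, chromosome 11, 115116214 to 115133992), an inhibitory member, stood at 1.12 ± 0.15 (adjusted p 5.22e-12) and a mean count of 1336 in the authors' deposited table. Cd300ld4 (ENSMUSG00000069609) had 1.16 ± 0.22 (adjusted p 1.15e-06) at a mean count of 91.3, and Cd300ld5 (ENSMUSG00000089722) had 1.10 ± 0.17 (adjusted p 5.99e-10) at 195, in the authors' deposited table. These last values cannot be assigned to 1 gene. The annotated transcripts of Cd300ld4 and Cd300ld5, each of 852 bases, differ by 1 base, G561A, where Cd300ld4 has the first base and Cd300ld5 the second, counted from 1 at the 5′ end of the transcript. The base lies in coding sequence of exon 3 of 4, and Cd300ld3, which was not listed, differs from Cd300ld4 at 10 bases and from Cd300ld5 at 9. The stretch from base 531 to base 591 shows how little separates them, with the differing base in capitals.
Cd300ld4: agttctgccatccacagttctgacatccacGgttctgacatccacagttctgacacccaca
Cd300ld5: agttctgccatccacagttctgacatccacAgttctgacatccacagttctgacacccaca
Cd300ld3: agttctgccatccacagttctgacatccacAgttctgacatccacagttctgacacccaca
Of the 50-base stretches of Cd300ld4, 93.8% occur in Cd300ld5, and every such stretch of Cd300ld5 occurs in another gene. At 100 bases these shares were 86.7% and 100%. How the authors counted reads that fit several genes is not given in the sources used here, so the ratio of the mean counts of Cd300ld4 and Cd300ld5 is not interpreted. Their promoter windows were identical at 300 of 300 bases, and 1 sequence therefore stands for both, at chr11:115026904-115027183 for Cd300ld4 and chr11:115037661-115037940 for Cd300ld5, both on the minus strand. Cd300lf (minus strand, chr11:115133963-115134242) is shown beside it because it holds the same motif.
Cd300ld4: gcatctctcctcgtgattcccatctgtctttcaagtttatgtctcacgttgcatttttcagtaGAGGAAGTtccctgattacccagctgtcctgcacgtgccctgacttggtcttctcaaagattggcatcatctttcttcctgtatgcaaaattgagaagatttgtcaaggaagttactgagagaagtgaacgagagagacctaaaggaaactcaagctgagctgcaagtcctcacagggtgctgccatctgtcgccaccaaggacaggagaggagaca
Cd300lf: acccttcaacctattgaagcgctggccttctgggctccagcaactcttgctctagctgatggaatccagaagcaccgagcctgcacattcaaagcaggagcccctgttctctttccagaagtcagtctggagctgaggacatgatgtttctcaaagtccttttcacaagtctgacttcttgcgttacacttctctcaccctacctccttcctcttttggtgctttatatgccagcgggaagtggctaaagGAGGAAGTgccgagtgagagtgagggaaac
Capitals mark GAGGAAGT, a core like that bound by the myeloid factor PU.1. This pattern begins at position -187 in Cd300ld4 and at the start site in Cd300lf. It was found in 3.69% of the 27025 genes and in 3 of the 13 receptor genes with a promoter. All of these were CD300 genes, of which Cd300ld4 and Cd300ld5 count as copies of 1 sequence. Here too a match describes letters and not the binding of a factor.

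All 3 listed Siglecs rose, by factors with overlapping intervals. Siglec1, the sialoadhesin CD169 of tissue macrophages (ENSMUSG00000027322, chromosome 2, 131069220 to 131086765), stood at 1.15 ± 0.17 (adjusted p 2.12e-10) and a mean count of 1518 in the authors' deposited table. Siglecg (ENSMUSG00000030468, chromosome 7), an inhibitory receptor best known from B cells, had 1.10 ± 0.18 (adjusted p 9.17e-09) at a mean count of 132 in the authors' deposited table. With 1.10 ± 0.21 (adjusted p 1.20e-06) Siglecf (ENSMUSG00000039013, chromosome 7), a receptor of eosinophils and alveolar macrophages, reached a mean count of 65.1 in the authors' deposited table. Beside these, 2 of 10 B cell markers were called higher, Ighm (1.17 ± 0.24) and Ms4a1 (adjusted p 0.0196), in the authors' deposited table, which leaves out the other 8. The part of B cells in the value of Siglecg was not tested. The marker list was chosen with earlier results of these data known, and 22.0% of all listed genes were called higher. Siglece, Siglech and Siglec15 were not listed.

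The SIRP and TREM families contributed 1 gene each. Sirpb1a (ENSMUSG00000095788, chromosome 3, 15371653 to 15426520), an activating relative of the inhibitory receptor SIRP alpha, stood at 1.01 ± 0.18 (adjusted p 3.02e-07) and a mean count of 253 in the authors' deposited table. It shares 37.3% of its 50-base stretches with Sirpb1c and 33.8% with Sirpb1b, neither of which was listed. At 100 bases these shares were 18.9% and 16.0%, so that part of its value is uncertain, by smaller shares than for the Cd300ld genes. Treml2 (ENSMUSG00000071068, chromosome 17, 48299498 to 48312533), found on macrophages and lymphocytes, had 1.31 ± 0.25 (adjusted p 1.63e-06) at a mean count of 88.9 in the authors' deposited table. Sirpa, Trem1 and Trem2, the best studied members of these families, were not listed. Clec2f, annotated as a transcribed pseudogene, had the largest value of the 18 in the authors' deposited table, 2.76 ± 1.25, at a mean count of 2.42 and with an adjusted p of 0.0835.

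The 4 lower genes were led by genes used by endothelium. Clec14a (ENSMUSG00000045930, chromosome 12, 58264720 to 58269290), an endothelial lectin of vessel growth, fell 13.4-fold (log2 -3.75 ± 0.48, adjusted p 1.45e-13) at a mean count of 1291 in the authors' deposited table. Cd300lg (ENSMUSG00000017309, chromosome 11, 102041509 to 102055620), an endothelial mucin of the CD300 family that binds L-selectin, fell 8.24-fold (log2 -3.04 ± 0.27, adjusted p 2.26e-28) at 1718 in the authors' deposited table. The corresponding group levels are 2403 in ND and 179 in WD for Clec14a, and 3064 and 372 for Cd300lg. Clec1a (ENSMUSG00000033082, chromosome 6, 129424772 to 129452000), which recognises fungal melanin and is also made by endothelium, fell 5.07-fold (log2 -2.34 ± 0.24, adjusted p 2.33e-20) at 209 in the authors' deposited table. Cd209b (ENSMUSG00000065987, chromosome 8, 3917655 to 3926844), the lectin SIGN-R1 known from marginal zone macrophages of the spleen, fell 3.10-fold (log2 -1.63 ± 0.30, adjusted p 1.07e-06) at 51.5 in the authors' deposited table. The intervals of Clec14a and Cd300lg lay wholly below that of Cd209b, and the other 4 pairs overlapped.

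These falls lay beside those of a marker list for sinusoidal endothelium, which was chosen with earlier results of these data known. All 10 of the markers were called lower, as were 61.4% of all listed genes and 8.35% of the genes with an adjusted p. The markers had mean counts from 1297 to 6209. Their log2 fold changes ran from -3.83 to -1.49 with a median of -3.16 in the authors' deposited table. The values of Clec14a and Cd300lg lie within that range, as do those of Clec1a and Cd209b. The part of endothelial cells in the 4 falls was not tested, and levels of the markers in each group were not analysed here. Clec14a was also the least precise of the 4. Its SE was 2.42 times the median SE of the 100 listed genes nearest to it in mean count in the authors' deposited table, against 1.33 times for Cd300lg and 1.03 times for Cd209b, with Clec1a between them. Among the 13 higher genes this ratio ran from 0.675 for Clec7a to 1.14 for Cd209a. A large SE was not particular to Clec14a (0.48), since the SEs of the 10 endothelial markers ran from 0.20 to 0.43.

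**Figure D3:**
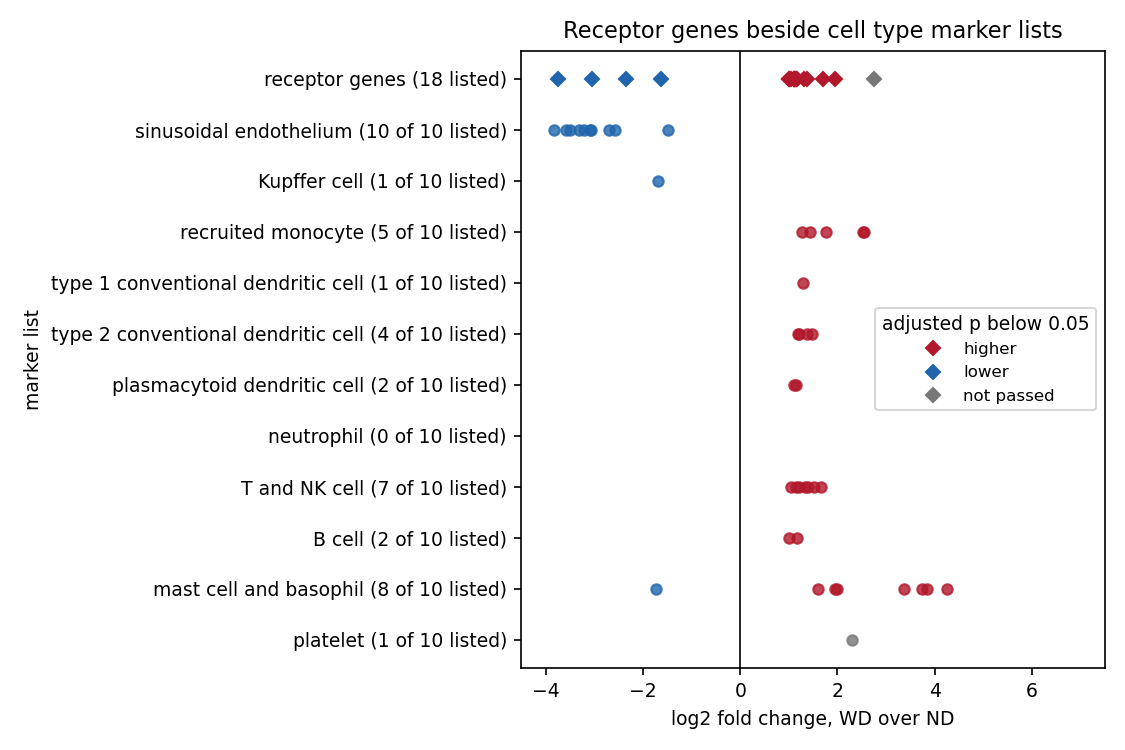
Log2 fold change, western over normal diet, of listed genes in each of 11 marker lists of 10 genes (circles) and of the 18 receptor genes (diamonds, top line), coloured by call. All 10 endothelial markers lie on the lower side, and their range from -3.83 to -1.49 takes in the 4 lower receptor genes. Listed monocyte, dendritic cell and T and NK cell markers lie on the higher side. The lists were chosen with earlier results of these data known, and 22.0% of all listed genes were called higher and 61.4% lower.

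The higher receptor genes moved beside markers of several blood-derived cells, on lists chosen with earlier results of these data known. Of all listed genes 22.0% were called higher, as were 3.0% of the genes with an adjusted p. Of 10 markers each, 5 of recruited monocytes, 7 of T and NK cells, 2 of plasmacytoid dendritic cells and 1 of type 1 conventional dendritic cells were called higher and none lower in the authors' deposited table. The monocyte genes ran from 1.28 to 2.55 on the log2 scale there, at mean counts from 500 to 1794, and Ms4a4c (2.52 ± 0.25) and Plac8 (1.76 ± 0.18) had the smallest p-values. Mast cell and basophil markers were higher in 7 cases and lower in 1, whereas no neutrophil marker was listed and the only listed platelet marker, Tubb1, did not pass. Of 10 Kupffer cell markers only Cdh5, shared with endothelium, was listed and lower (-1.68 ± 0.27) in the authors' deposited table, and Clec4f, Vsig4, Timd4 and Adgre1 were not listed. A gene that is not listed may have changed by less than 2-fold, may have missed the p limit or may not have been measured, so the labelled cell type could not be checked against its own markers. The part of these cell types in the rises was not tested.

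Neighbouring genes of these families did not always move the same way. Clec1a and Clec7a lie 9.59 kb apart on chromosome 6 with no annotated gene between them, and the first fell to 68.7 from 348 by the arithmetic above while the second rose. The stretch from Clec12a to Olr1 around them holds 7 lectin genes, of which the other 5 were not listed, among them Clec9a and Clec1b. Cd209a and Cd209b, 169 kb apart on chromosome 8, went in opposite directions as well, and Cd209e and Cd209d between them were not listed. The genes of neither pair share a 50-base stretch with each other. In the CD300 stretch of 244 kb on chromosome 11, 3 of 11 genes were called higher and 8 were not listed, and the falling Cd300lg lies 12965 kb away. Siglecf and Siglecg, 48.7 kb apart on chromosome 7, moved the same way with equal factors. On chromosome 1, Cd48, Slamf1 and Cd84 between Slamf7 and Slamf6 were not listed.

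**Figure D4:**
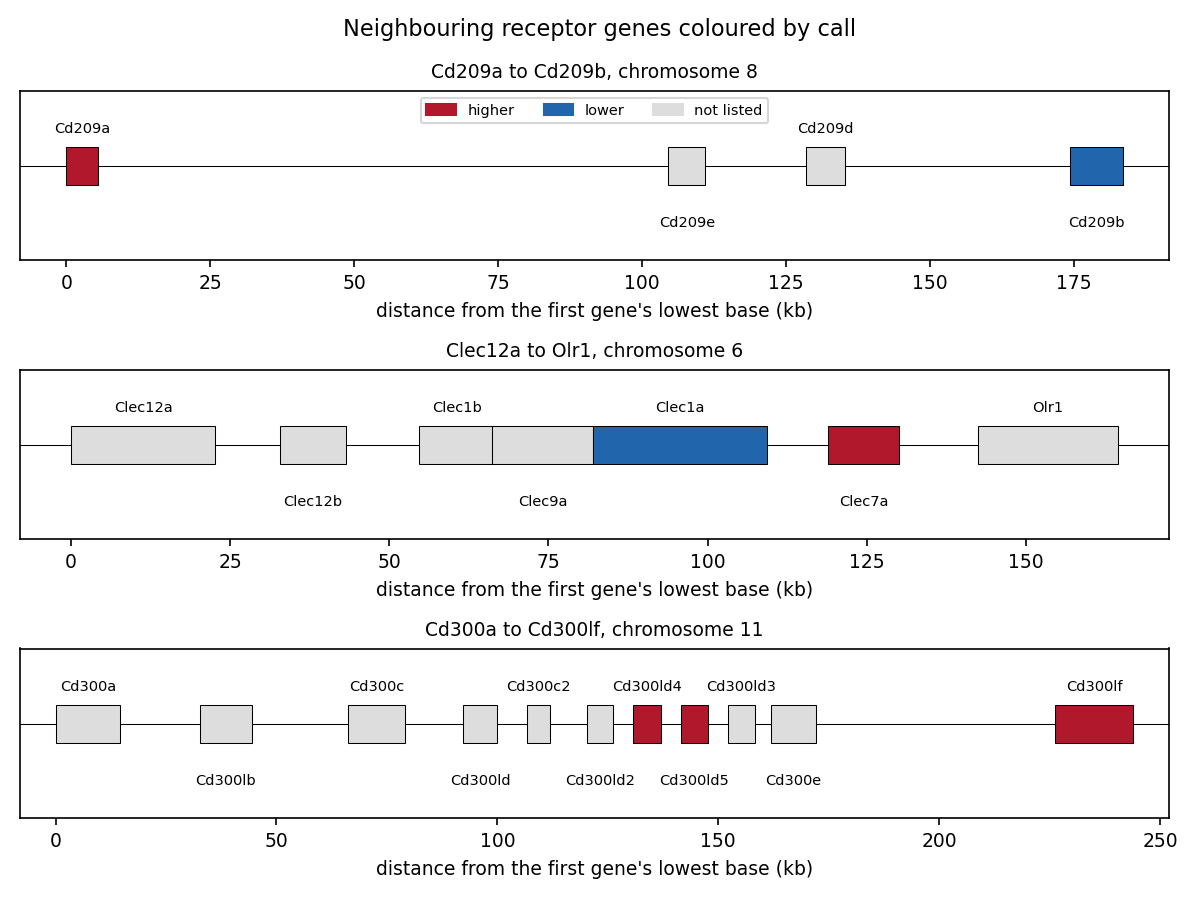
Protein-coding genes and Clec7a along 3 stretches that hold receptor genes, drawn to scale as distance in kb from the lowest base of the first gene and coloured by call (grey, not listed). Clec1a (lower) and Clec7a (higher) are direct neighbours 9.59 kb apart, Cd209a and Cd209b stand at opposite ends of their stretch with opposite calls, and 3 CD300 genes are higher.

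Most annotated genes with these prefixes were outside the authors' list. GENCODE M21 holds 81 such genes without Clec4g, of which 13 (16.0%) were called higher, 4 (4.94%) lower and 63 were not listed. Among the 17531 genes with an adjusted p, a number recovered from the authors' adjusted p-values, 3.0% were called higher and 8.35% lower, in each case beyond 2-fold. Genes tested without an adjusted p, 77 of them listed, are outside that number. How many of the 81 had an adjusted p is unknown, so these shares are descriptions. By family, 3 of 5 Slamf genes, 3 of 6 Siglecs, 3 of 12 CD300 genes, 1 of 7 Cd209, 1 of 4 Sirp, 1 of 6 Trem and 1 of 32 Clec genes were called higher. Those called lower were 2 Clec genes, 1 Cd209 gene and 1 CD300 gene. The 3 higher CD300 genes include Cd300ld4 and Cd300ld5, whose values cannot be assigned to 1 gene. None of 6 Lilr and Pir genes and none of 3 Pilr genes was listed. Of the 32 Clec genes 28 were not listed, among them the pattern receptors Clec4d, Clec4e and Clec4n, which also signal through Syk.

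**Figure D5:**
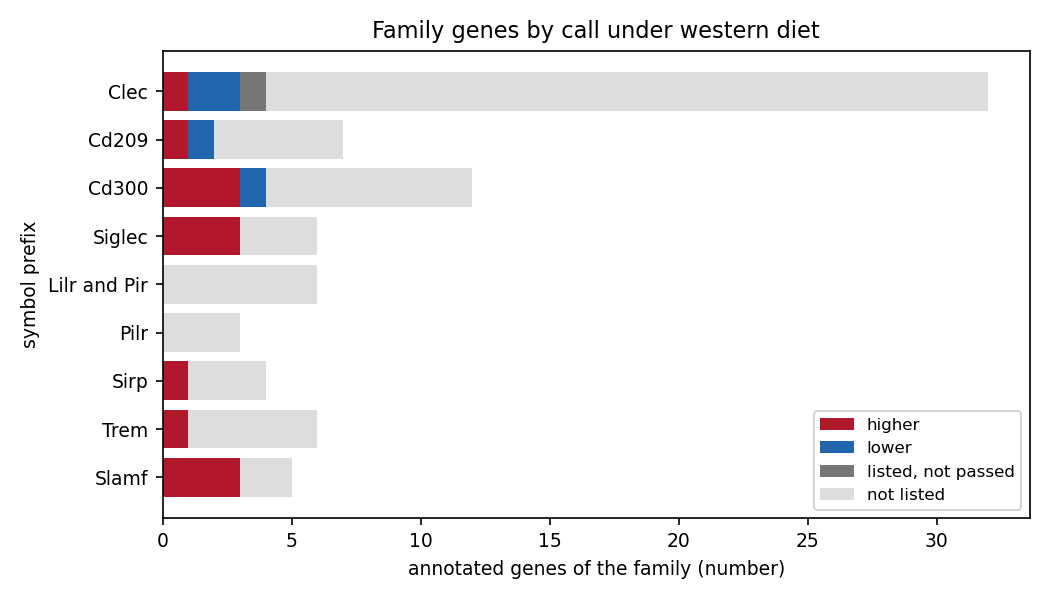
Number of annotated genes with each symbol prefix, split by call in the comparison of western with normal diet. Slamf and Siglec genes are higher in 3 of 5 and 3 of 6 cases, 28 of 32 Clec genes are not listed, and the Lilr, Pir and Pilr genes are all outside the authors' list.

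The partners of these receptors were mostly outside the authors' list. They were looked up in lists chosen with earlier results of these data known. Of all listed genes 22.0% were called higher and 61.4% lower, against 3.0% and 8.35% of the genes with an adjusted p. Of 16 adaptors and activating signalling genes, Malt1 (1.38 ± 0.18, adjusted p 9.82e-13), which acts downstream of Dectin-1, and Sh2d1b1 (1.30 ± 0.26, adjusted p 9.54e-06), which encodes the SLAM adaptor EAT-2, were called higher in the authors' deposited table. The related SLAM adaptor Sh2d1a had 1.64 ± 0.67 there and did not pass (adjusted p 0.0508). The adaptor genes Tyrobp and Fcer1g and the kinase gene Syk were among the 13 genes that were not listed, and so were all 12 inhibitory phosphatases and kinases, Ptpn6 and Inpp5d included. Of 18 ligand symbols, 17 of which are in the mouse annotation, 3 were called lower and none higher in the authors' deposited table. Mmrn2, which encodes the endothelial matrix ligand of Clec14a, fell 7.67-fold (log2 -2.94 ± 0.27, adjusted p 2.16e-26), Icam2 had -1.65 ± 0.18 and Angptl2 -1.12 ± 0.35 in the authors' deposited table. Pdpn, the ligand of Clec1b, had -1.14 ± 0.52 there without passing (adjusted p 0.0829), and Cd47, the ligand of SIRP alpha, was not listed. Endothelial markers of the sinusoid fell beside them, and their part in the ligand values was not tested.

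The authors' own enrichment used listed genes with a positive fold change, so that the lower receptor genes could not enter it. Receptor genes appeared in 43 GO terms, 27 of them with a Benjamini p below 0.05, and in 6 KEGG terms, 5 of them below 0.05, in the authors' deposited table. Clec7a alone was in 26 terms, 17 below 0.05, whereas Cd300ld4 and Cd300ld5 were in none. T cell activation (12 genes, Benjamini p 8.37e-10) held Slamf6, Slamf7 and Treml2, and cell adhesion (27 genes, Benjamini p 1.17e-06) held Siglec1, Siglecf and Siglecg in the authors' deposited table. The KEGG term for C-type lectin receptor signalling had a Benjamini p of 0.00123 and held Cd209a and Clec7a in the authors' deposited table.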

How the data were processed

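RNA was sequenced from liver macrophages, 4 ND and 4 WD libraries grouped by their diet labels. Per the labels' protocols, polyadenylated RNA was enriched and copied with random hexamers. Per the submitters' processing notes, the build was mm10 and the tools include STAR, HISAT2, STAR-Fusion, StringTie, featureCounts, DESeq and edgeR, with no roles or versions. Per the file headers, the deposited signal is a mean normalized count, and the deposited log2 fold change and its SE are on the log2 scale. The deposited score equals fold change over SE (largest departure 7.06e-08), and the deposited p-value and adjusted p-value complete each row. The authors' deposited gene count for each GO term and the Benjamini p of each GO and KEGG term were also used. Tested on the values, every listed gene has a p below 0.05 and an absolute log2 fold change above 1. The adjusted p is empty for 77 genes, none of them a receptor gene. Depth and replicate spread are unknown.

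Calls use the authors' adjusted p at 0.05, and every receptor gene is named. Other lists, of which up to 4 genes with the smallest p are named, were fixed together with the rule, but the members and lists were chosen with earlier results of these data known. The number of genes with an adjusted p was recovered as the integer making p-value times that number over adjusted p a whole rank. This held within 0.02 for most genes (91.0%), and on a simulated table of 15000 genes the step returned 15000. Coordinates, biotypes, exon lengths and transcripts are from GENCODE M21 (GRCm38, the mm10 assembly), promoters from RefSeq (GRCm38.p6), matched by symbol. No promoter sequence was matched for Cd300lg, Clec1a, Clec2f, Siglec1 and Treml2. Shared stretches were sought on both strands in all other GENCODE transcripts, at 50 and 100 bases. Python 3.11.15 with pandas 2.3.3 was used. Alternatives changed the limit on p, the size of change, the mean count and the member rule.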

Additional observations from a re-analysis of the deposited data

How the results depend on the processing

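The counts of 13 higher and 4 lower receptor genes stayed within a factor of 1.5 with no limit on the adjusted p (14 and 4), an adjusted p below 0.01 (13 and 4), a mean count of at least 10 (13 and 4), and Clec4g added (13 and 5). Only protein-coding genes of GENCODE, an alternative chosen after seeing the data, left 12 and 4. With a 95% interval wholly beyond 2-fold, 2 higher genes were left, Slamf7 and Slamf8, and all 4 lower ones, because most rises lie close to the 2-fold limit of the list. The higher count then went to 0 for the Clec, Cd209, CD300, Siglec, Sirp and Trem families. For Clec genes it was 2 with no limit on the adjusted p, through Clec2f, and 0 for protein-coding genes, since GENCODE lists Clec7a as a polymorphic pseudogene. These alternatives only select among the same deposited fold changes, so none could change a direction. Leaving out each library in turn and another normalization or count model were not run, as they need values per library, and a biotype from the authors' table was not used. No paired analysis was possible because the columns carry no library. Depth per library is unknown, and Clec2f, at a mean count of 2.42, is the receptor gene with the widest interval.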

Other observations

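Relatives of these receptors that do not carry the prefixes moved in both directions. Their list was chosen with earlier results of these data known. Of all listed genes 22.0% were called higher and 61.4% lower, against 3.0% and 8.35% of the genes with an adjusted p. Of the 36 relatives, 6 were called higher, 6 lower, and 1 did not pass in the authors' deposited table, from which 23 were absent. Klrd1 (1.38 ± 0.21), a lectin-like receptor of NK cells, had the smallest p of the higher genes in the authors' deposited table. Thbd (-1.41 ± 0.22), the thrombomodulin gene with a lectin-like domain, was lower in the authors' deposited table, as were Pecam1 (-1.71 ± 0.20) and Clec4g (-3.54 ± 0.39), both used by sinusoidal endothelium. The SLAM relatives Cd48, Cd84, Cd244a and Ly9 and the Siglecs Cd22 and Cd33 were not listed.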
